A study of Rattus norvegicus with 40 samples.

Results

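The mitochondrial respiratory chain and ATP synthase carry out the last steps of aerobic energy production, on which a beating heart muscle cell depends. Members here were all genes whose platform symbol, alone on its probe set, begins with Nduf, Uqcr, Cox4 to Cox8 or Atp5, or is Sdha, Sdhb, Sdhc or Sdhd. A single probe set stood for each gene, the brightest over the 40 arrays. The rule found 96 probe sets and 86 genes, of the 14217 genes that the table holds with a symbol of their own. By complex the 84 members bright enough to be tested were 42 for complex I, 4 for complex II, 7 for complex III, 15 for complex IV and 16 for complex V. The other members, Cox7a1 and Cox7b2, were too dim. Counted in complex I by their symbol were 6 of its assembly factors, the oxidase subunit Ndufa4 and the Ndufa4 paralogue Ndufa4l2. A further 7 pairs of symbols of the same families shared a probe set and were left out by the rule: Atp5mc1, Atp5mc2, Cox7a2, Uqcrb, Ndufs5 and Ndufa10, each with a like-named copy, and a second Cox5a probe set.

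Total RNA came from neonatal rat ventricular myocytes, beating heart muscle cells isolated from newborn rats and kept in culture. Oxygen was restricted by coverslip hypoxia, in which a glass coverslip is laid over the cell layer. The groups were ischemia+reperfusion labelled 0, 10, 30, 60 and 120 min, and ischemia alone labelled 0, 10, 30, 60 and 120 min, with 4 arrays in each: a pair of duplicates for either of 2 cell preparations. From the labels one learns neither the length of reperfusion, nor what the minutes cover, nor whether duplicates were separate cultures. Duplicates were averaged before testing. The p-values therefore rest on how far the group changes differed between the 2 preparations, a spread that may be technical in part. All groups shared the cell type. No group title names an untreated culture, and the titles do not say whether the 0 min groups were untreated. Times and durations below are the labelled minutes.

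Electrons enter the chain at complex I (NADH dehydrogenase) or complex II (succinate dehydrogenase, also an enzyme of the citric acid cycle) and pass through complex III (the cytochrome bc1 complex) to complex IV (cytochrome c oxidase), which hands them to oxygen. Protons pumped on the way drive complex V, the ATP synthase. Nuclear genes encode all members, of which Cox6c-ps1 is annotated as a pseudogene. A few subunits exist as paralogues that depend on tissue or oxygen: in human and mouse cells, low oxygen acts through hypoxia-inducible factor 1 on the genes for NDUFA4L2 and COX4I2.

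Levels below are log2(intensity + 16) after quantile normalization, and changes are limma estimates on that scale with their standard error (SE). Each estimate rests on n = 2 preparations a group, with duplicates averaged, and a call is a Benjamini-Hochberg adjusted p under 0.05 over the 18625 probe sets tested. Probe sets differ in their response, so a level is compared between groups and never between genes.

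The cells carried the markers of heart muscle. The 11 cardiomyocyte genes on the array, from a list of 12, were measured, and their summed intensity ran from 96840 to 109652 over the 40 arrays. A single array stood apart. In the 0 min ischemia group, duplicate 1 of preparation 1 correlated with the other arrays by a median of 0.872, against 0.960 for the next lowest. On it 1459 probe sets (4.7%) lay over 2 log2 units from the median of the other arrays, against 66 to 229 probe sets on the other arrays. A pair of arrays at 120 min, duplicate 1 of preparation 2 in ischemia+reperfusion and duplicate 2 of preparation 2 in ischemia, had looked out of place in earlier results of these data. Values without these arrays are given where they change a call.

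The respiratory chain genes stayed close to level in every group. Their probe sets gave strong signals, which bears on precision and is no measure of abundance, and 72 of the 86 lay above the 95th percentile of all probe sets. The 3 strongest mean signals were those of Atp5f1b, the catalytic beta subunit of ATP synthase, at 13.60, Atp5mc3, a subunit of its proton-carrying ring, at 13.48, and Cox4i1 at 13.42. The 3 weakest were those of Cox6b2, a testis-type subunit, at 7.0, Cox7b2 at 5.61, and Cox7a1, a heart and muscle-type subunit, at 5.12, where 4 of the 40 arrays read at the floor of the scale. Atp5f1b and Atp5mc3 moved by no more than 0.07 log2 units in any of the 8 comparisons with 0 min. The standard error of a change had a median of 0.061 over the members, against 0.118 over all probe sets tested. The 95% interval of the change at 120 min lay within 0.5 log2 units of 0 for 77 of 84 members in ischemia+reperfusion and for 76 of 84 in ischemia.

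The share of members that passed at 120 min lay below that of all probe sets tested in both arms. In ischemia it did not on the deposited scale (23.8% of members, beside 18.3% of all). Nor did it there with no filter on dim probe sets (9.52% of members, beside 7.99% of all). After 120 min of ischemia+reperfusion 1 of 84 members passed the test, in the higher direction, or 1.19%, beside 7.17% of all probe sets tested (3.5% higher). After 120 min of ischemia 6 of 84 passed, 1 higher and 5 lower, or 7.14%, beside 12.9% of all probe sets (6.45% higher and 6.48% lower). Of the 1553 probe sets above the 95th percentile of brightness, 5.02% passed after 120 min of ischemia+reperfusion and 6.5% after 120 min of ischemia. In ischemia+reperfusion none passed at 10 min (background 0.0376%), 30 min (0.784%) or 60 min (4.69%). In ischemia 1 of 84 passed at 10 min, in the lower direction (background 1.98%, and 0.838% lower), and none did at 30 min (0.0966%) or 60 min (0.129%). With limma's unadjusted p under 0.05, the counts in those 5 comparisons with 0 calls were 2, 2 and 7 members at 10, 30 and 60 min of ischemia+reperfusion, and 5 and 4 members at 30 and 60 min of ischemia. When the 40 arrays entered as samples with an estimated correlation of duplicates, the same 5 counts of calls were 0, 1, 4, 1 and 1. Of all probe sets 1.87%, 3.81%, 11.7%, 1.53% and 1.58% were then called, in the same order.

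**Figure D1:**
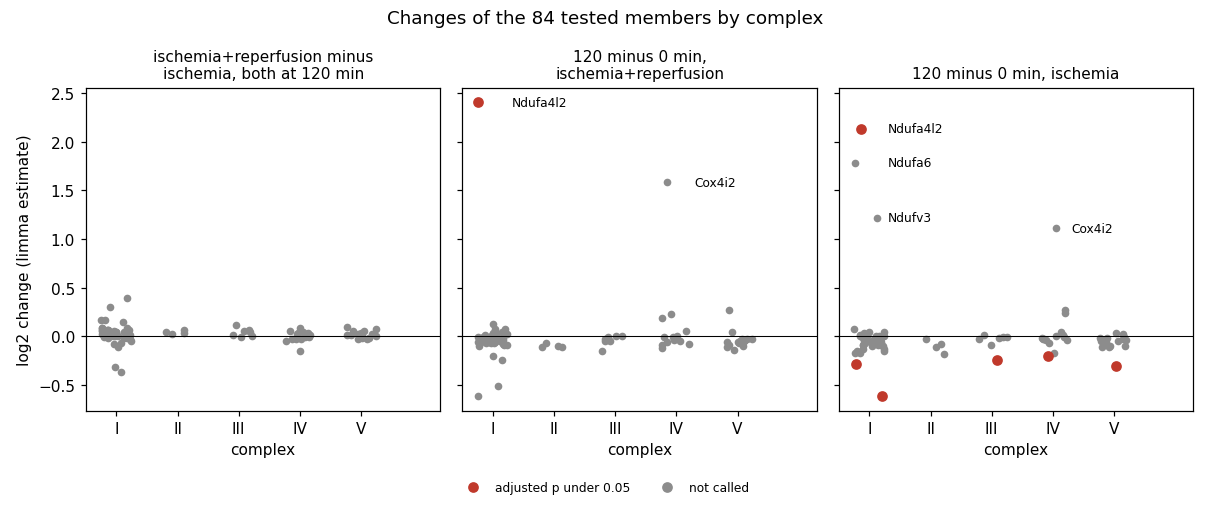
Log2 change of each of the 84 tested members by complex (horizontal axis) for ischemia+reperfusion minus ischemia at 120 min, for 120 minus 0 min of ischemia+reperfusion and for 120 minus 0 min of ischemia. Red points passed an adjusted p of 0.05. Nearly all points lie within 0.5 log2 units of 0. Ndufa4l2, placed under complex I by its symbol, stands above them in both arms. Ndufa6 and Ndufv3 in the right panel rest on the single outlying 0 min array.

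By complex, the shifts were small and mostly downward at 120 min. In ischemia+reperfusion the median change of the tested members was -0.02 in complex I, -0.10 in complex II, -0.03 in complex III, -0.02 in complex IV and -0.05 in complex V. In ischemia the medians were -0.05 in complex I, -0.10 in complex II, -0.01 in complex III, -0.02 in complex IV and -0.04 in complex V. The median over all probe sets tested was -0.02 in ischemia+reperfusion and 0.00 in ischemia. Changes were below 0 for 63 of 84 members in each arm, and all 4 members of complex II were below 0 in both. These medians depend on scaling: on the deposited scale, where the median of all probe sets moves by -0.12 in ischemia+reperfusion and -0.22 in ischemia, they ran from -0.21 to -0.13 and from -0.34 to -0.25.

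Averaged over its tested members, each complex varied little between arrays. The mean of complex III ran from 12.99 to 13.13 over the 40 arrays, and the highest and lowest arrays of complex V lay 0.12 log2 units apart. Complex II ran from 12.57 to 12.86, complex IV from 11.74 to 12.04, and complex I from 11.67 to 12.13, its lowest value being the outlying array. Complex II averaged 12.63 ± 0.04 at 120 min of ischemia, against 12.73 ± 0.05 at 0 min (SD over 4 arrays). The groups overlapped only through the outlying 0 min array, at 12.666, against up to 12.669 at 120 min. The other 0 min arrays started at 12.72. Complex V averaged 12.91 ± 0.01 at 120 min of ischemia, against 12.97 ± 0.04 at 0 min, again with overlap. In ischemia+reperfusion complex II averaged 12.67 ± 0.09 at 120 min, against 12.77 ± 0.08 at 0 min, and complex IV 11.89 ± 0.06, against 11.78 ± 0.04, with overlap in both. Within complex IV 10 of 15 members lay below 0 there, while Cox4i2 was at 1.58.

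**Figure D2:**
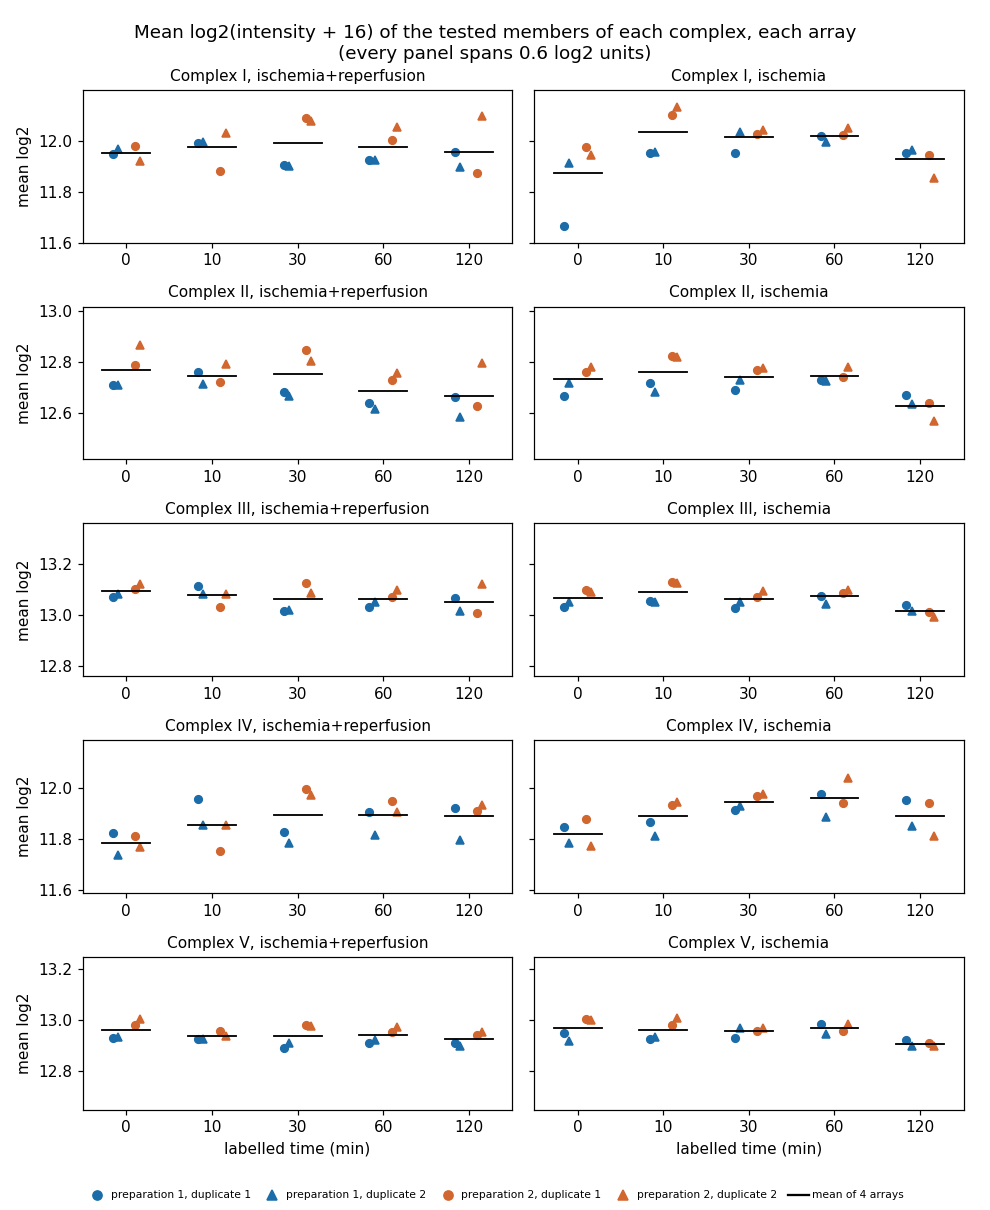
Mean log2(intensity + 16) over the tested members of complexes I to V (rows) in each array of ischemia+reperfusion (left) and ischemia (right) against labelled time in min. Colours mark the 2 preparations, symbols the duplicates and black lines the mean of 4 arrays. Each panel spans 0.6 log2 units. The low complex I point at 0 min of ischemia (11.67) is the outlying array.

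Ndufa4l2 moved most. It is a paralogue of the oxidase subunit Ndufa4 and, in human and mouse cells, lowers complex I activity under low oxygen. The 300 bases of its promoter, from 250 before to 50 after the gene start, are shown with those of Ndufaf1, the called member that fell most, and of Cox4i1, which stayed level (RefSeq, build GRCr8). They lie at chr7:65241919-65242218 on the plus strand for Ndufa4l2, chr3:127103971-127104270 on the minus strand for Ndufaf1 and chr19:65630133-65630432 on the plus strand for Cox4i1. Each reads 5′ to 3′ along its gene. Capitals mark ACGTG (a form of the hypoxia response element core) and CCGGAAG (a core bound by ETS factors) on either strand. GCGTG, another form of the hypoxia response element core, was not searched.
Ndufa4l2: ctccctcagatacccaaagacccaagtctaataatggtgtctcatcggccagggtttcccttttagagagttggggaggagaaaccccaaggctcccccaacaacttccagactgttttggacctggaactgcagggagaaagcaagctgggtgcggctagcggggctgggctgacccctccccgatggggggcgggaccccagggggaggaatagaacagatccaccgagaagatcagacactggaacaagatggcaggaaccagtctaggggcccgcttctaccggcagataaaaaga
Ndufaf1: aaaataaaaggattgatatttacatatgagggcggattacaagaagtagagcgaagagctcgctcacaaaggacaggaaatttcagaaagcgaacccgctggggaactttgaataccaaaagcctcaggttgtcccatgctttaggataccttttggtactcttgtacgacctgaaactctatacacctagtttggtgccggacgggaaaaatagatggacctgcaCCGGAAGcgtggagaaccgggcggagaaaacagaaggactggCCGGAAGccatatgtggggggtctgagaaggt
Cox4i1: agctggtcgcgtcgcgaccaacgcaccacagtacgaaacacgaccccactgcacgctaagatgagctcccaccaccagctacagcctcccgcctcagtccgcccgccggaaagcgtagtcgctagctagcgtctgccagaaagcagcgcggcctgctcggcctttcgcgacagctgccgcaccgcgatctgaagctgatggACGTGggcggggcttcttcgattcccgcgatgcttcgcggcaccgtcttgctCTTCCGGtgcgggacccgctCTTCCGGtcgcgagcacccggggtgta
The other motif, GCGC and TGCGC with any base N between them (the core bound by nuclear respiratory factor 1, NRF1), was also searched on both strands and is absent from these 3. Neither it, ACGTG nor CCGGAAG lies in the Ndufa4l2 window. Counting from the gene start, Ndufaf1 holds CCGGAAG with its first base at -24 and at 19. Cox4i1 holds ACGTG at -49 and, on the other strand, CCGGAAG at 4 and 24.

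Promoters were found for 78 of the 86 members, and entries for Ndufa8, Ndufb9, Uqcr11, Cox6a1, Cox6c, Cox4i2, Cox6c-ps1 and Atp5pd were missing from the table. CCGGAAG was in 28.2% of member promoters, against 8.75% of all 33469 promoters in the table. The NRF1 core was in 19.2% of member promoters, against 4.25% of all. ACGTG was in 25.6% of member promoters, against 19.3% of all, and it can lie within an E-box (CACGTG), where both strands match. A match is a string of letters and was not measured as a bound site.

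Ndufa4l2 was low at 0 min in both arms and high at the later times in ischemia, with more spread in ischemia+reperfusion. In ischemia+reperfusion, its levels in duplicates 1 and 2 of preparation 1 and then of preparation 2 were 9.01, 8.74, 7.72 and 7.43 at 0 min, and 10.54, 10.08, 8.09 and 10.22 at 10 min. They were 9.33, 9.04, 10.67 and 10.45 at 30 min, 10.28, 9.32, 10.55 and 10.48 at 60 min, and 10.86, 10.31, 10.67 and 10.70 at 120 min. The 120 min arrays did not overlap those at 0 min, while at 10 min preparation 2 held an array within the range of 0 min. At 30 min preparation 1 stayed near its 0 min level, with a rise of 0.31, against 2.98 in preparation 2. In ischemia the levels, in the same order, were 9.21, 8.85, 7.67 and 6.69 at 0 min, and 10.23, 10.20, 10.39 and 10.48 at 10 min. They were 10.15, 10.30, 10.22 and 10.41 at 30 min, 10.41, 10.10, 10.21 and 10.55 at 60 min, and 10.81, 10.50, 10.56 and 9.09 at 120 min. All arrays at 10, 30 and 60 min lay above those at 0 min, and at 120 min 1 array overlapped them. That array belongs to the pair named above.

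The rise of Ndufa4l2 was 2.41 ± 0.63 (SE, 5.3-fold) at 120 min of ischemia+reperfusion (limma, adjusted p = 0.044) and 2.13 ± 0.63 (4.39-fold) at 120 min of ischemia (adjusted p = 0.048). In ischemia+reperfusion the estimates at 10, 30 and 60 min were 1.5, 1.65 and 1.93, with adjusted p of 0.39, 0.26 and 0.10. In ischemia they were 2.22, 2.17 and 2.21 at those times, no smaller than at 120 min, but with adjusted p of 0.088, 0.18 and 0.17. Among the 18625 probe sets its rise ranked between 8 and 27 in these 8 comparisons. The preparations differed in their 0 min level, and the rise was 1.71 in preparation 1 and 3.11 in preparation 2 at 120 min of ischemia+reperfusion, and 1.63 and 2.64 at 120 min of ischemia. At 60 min of ischemia+reperfusion it was 0.92 and 2.94. Both 120 min calls lay close to the threshold. Without the outlying 0 min array the change at 120 min of ischemia was 2.22 (adjusted p = 0.034), and without the pair it was 2.50 (adjusted p = 0.022). That call was lost without any 1 of 4 arrays, duplicate 2 of either preparation at 0 min or duplicate 1 of either at 120 min (adjusted p up to 0.12). The call in ischemia+reperfusion was lost without duplicate 2 of preparation 1 at 0 min or duplicate 1 of preparation 1 at 120 min (adjusted p = 0.052 and 0.057). Without the preparation block the adjusted p was 0.056 at 120 min in each arm, and with no filter on dim probe sets 0.086 in ischemia+reperfusion and 0.088 in ischemia. On the deposited scale it was 0.061 in ischemia+reperfusion, and with a pseudocount of 4 it was 0.051 in ischemia.

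Its paralogue Ndufa4, a bound subunit of cytochrome c oxidase named after complex I, stayed between 12.97 and 13.20 on all 40 arrays. Its changes ran from -0.06 to 0.02 over the 8 comparisons with 0 min (SE 0.05, smallest adjusted p = 0.59), and at 120 min of ischemia it was -0.23 on the deposited scale (adjusted p = 0.13).

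Cox4i2, the oxygen-dependent isoform of oxidase subunit 4, showed a like pattern without passing the test under the main settings. In ischemia+reperfusion it read 9.61, 8.73, 9.10 and 8.87 at 120 min and 8.24, 7.21, 7.41 and 7.10 at 0 min, with no overlap. In ischemia it read 9.61, 8.89, 9.45 and 8.41 at 120 min and 8.75, 8.73, 7.66 and 6.78 at 0 min, with overlap. Its level also leaned by duplicate number. Over 20 pairs of duplicates, duplicate 1 was the higher in 16, by more than 0.5 log2 units in 10, and the lower by more than 0.5 in 2. The change was 1.58 ± 0.46 at 120 min of ischemia+reperfusion (adjusted p = 0.062) and 1.11 ± 0.46 at 120 min of ischemia (adjusted p = 0.13). Over the 8 comparisons it ran from 1.02 to 1.58 with a smallest adjusted p of 0.062 under the main settings. With arrays as samples and a duplicate correlation Cox4i2 passed at 120 min of ischemia+reperfusion (limma, adjusted p = 0.0080). With duplicate number as a term it passed at 120 min of ischemia+reperfusion and of ischemia (limma, adjusted p = 0.0030 and 0.027). Both of these fits count duplicates as samples. The general isoform Cox4i1 changed by between -0.03 and 0.01 over the same comparisons (SE 0.05). On the deposited scale its change at 120 min of ischemia was -0.31 (adjusted p = 0.048), where all probe sets had a median of -0.22. Lonp1, a mitochondrial protease that in human cells degrades COX4I1 under low oxygen, rose by 1.51 ± 0.43 at 120 min of ischemia (adjusted p = 0.043). It was not called at 120 min of ischemia+reperfusion, and a link to Cox4i1 or Cox4i2 was not tested.

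**Figure D3:**
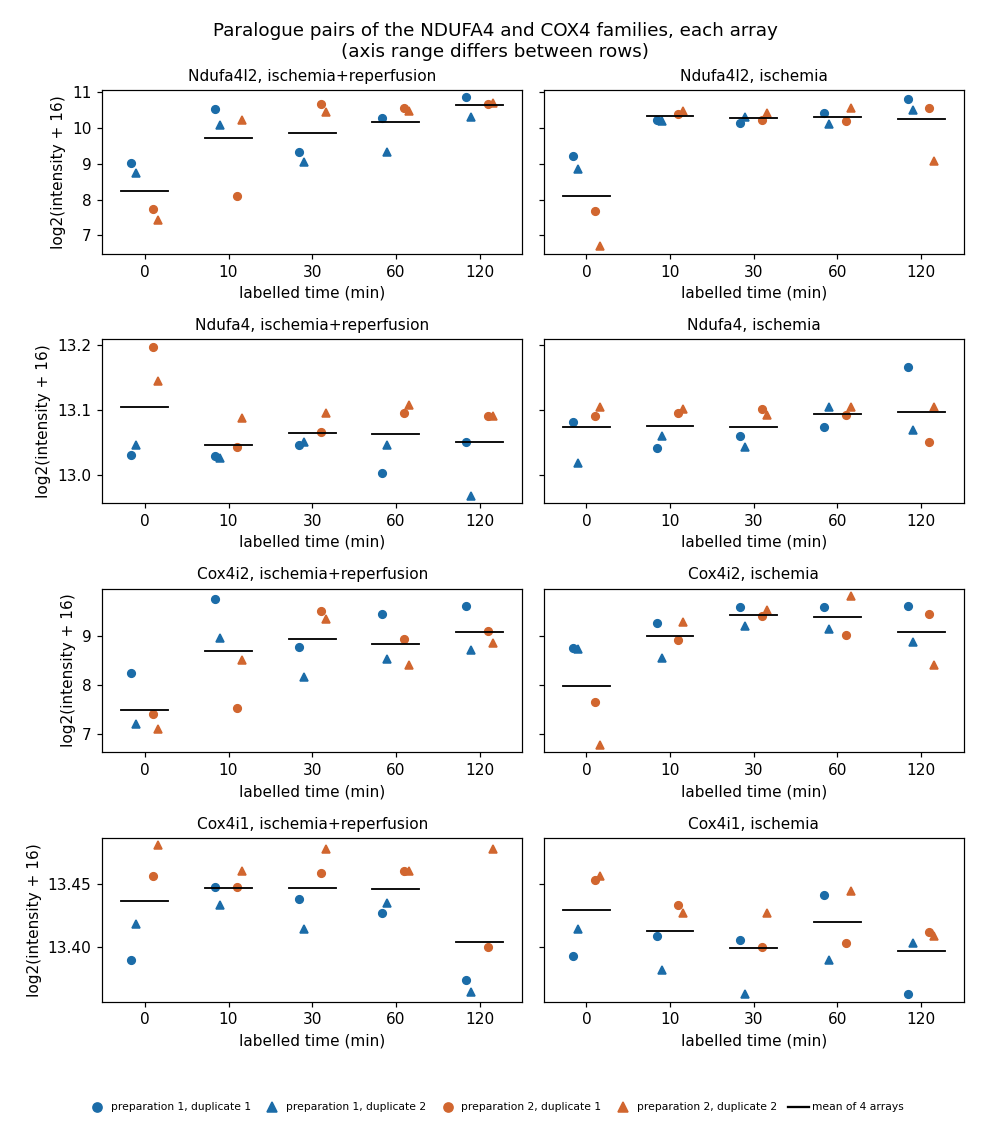
Levels of Ndufa4l2 and Cox4i2 with their paralogues Ndufa4 and Cox4i1 in each array of ischemia+reperfusion (left) and ischemia (right), as log2(intensity + 16) against labelled time in min. Colours mark preparations, symbols duplicates and black lines the mean of 4 arrays. Ndufa4l2 spans about 4 log2 units, while all Ndufa4 arrays lie between 12.97 and 13.20.

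Some markers of other cells moved at the same time (over all probe sets 3.5% were called higher at 120 min of ischemia+reperfusion and 6.45% at 120 min of ischemia). Of the 7 smooth muscle and pericyte genes, Rgs5, a pericyte marker, rose by 0.72 ± 0.21 at 120 min of ischemia (adjusted p = 0.049) and the other 6 passed in neither direction. The changes of the 7 ran from -0.44 to 0.72, with a median of 0.08. Rgs5 ran from 9.48 to 9.78 at 120 min of ischemia, against 8.46 to 9.23 at 0 min. Of 6 endothelial genes tested 3 rose there, Pecam1 by 1.04, Tie1 by 0.52 and Tek by 0.33, and in ischemia+reperfusion at 120 min 0 of 6 passed. The changes of the 6 at 120 min of ischemia ran from -0.20 to 1.04. The summed endothelial intensity was 2100 to 3048 at 120 min of ischemia, against 1782 to 2423 at 0 min, and Vwf was below the filter. Of 10 fibroblast genes 1 rose there, Pdgfra by 0.45, and the summed fibroblast intensity was 49167 to 51439, against 42686 to 48292 at 0 min. In ischemia+reperfusion 1 fibroblast gene, Tcf21, fell by 0.61, with summed intensities of 48256 to 53106 at 120 min, against 44603 to 54083 at 0 min. Of 7 macrophage genes 0 passed in ischemia at 120 min and Mrc1 fell by 0.69 in ischemia+reperfusion. All 3 erythroid genes on the array were below the filter. The summed smooth muscle and pericyte intensity was 26682 to 27829 at 120 min of ischemia, against 24840 to 27049 at 0 min. That sum was carried by its strongest probe sets, Des, Acta2, Tagln and Cnn1 (mean signals of 12.98, 12.73, 12.36 and 11.90, against 9.33 for Rgs5). It is therefore no measure of pericytes. No cardiomyocyte gene passed at 120 min of ischemia, and in ischemia+reperfusion Myh7 rose by 0.32. The part of these cells in the change of Ndufa4l2 was not tested, and fewer cells of a type cannot be told apart from less RNA per cell.

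In complex I, the assembly factor Ndufaf1 fell most among the members called. Its protein is part of a complex that builds the membrane arm of complex I. In ischemia+reperfusion Ndufaf1 read 8.52, 8.42, 8.49 and 8.44 at 120 min and 8.59, 8.84, 8.92 and 8.53 at 0 min, a change of -0.25 ± 0.07 (adjusted p = 0.051). In ischemia its 4 arrays at 120 min read 8.17, 8.23, 8.19 and 8.10, below every one of the other 36 arrays, and at 0 min they read 8.65, 8.93, 8.58 and 9.0. The change was -0.61 ± 0.07 (adjusted p = 0.0014), and it was -0.59 in preparation 1 and -0.64 in preparation 2. The F test over all durations passed in both arms, with an adjusted p of 0.045 in ischemia+reperfusion and 0.0068 in ischemia. The difference between the arms in the change at 120 min was 0.36 ± 0.10, with an adjusted p of 0.27.

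None of the other 5 complex I assembly factors among the members passed at 120 min of ischemia. In ischemia+reperfusion none passed either, and Ndufaf7 had the lowest estimate, -0.52 ± 0.24 (adjusted p = 0.22). In ischemia Ndufaf3 changed by -0.17 and Ndufaf4 by -0.17 (adjusted p = 0.12 and 0.071). Genes for other proteins that act with Ndufaf1 came from a list of further assembly factors: Acad9 changed by -0.12, Ecsit by -0.11 and Tmem126b by 0.02, and none passed. Of the 28 tested members of that list 1 passed at 120 min of ischemia, beside 12.9% of all probe sets (6.48% lower). It was Atpaf1, an assembly factor of ATP synthase, at -0.33 ± 0.09 (adjusted p = 0.033). In ischemia+reperfusion at 120 min none of the 28 passed, beside 7.17% of all probe sets.

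Ndufs1, the largest of the iron-sulfur core subunits of complex I, read 11.84, 11.85, 11.96 and 11.74 at 120 min of ischemia and 12.02, 12.16, 12.22 and 12.13 at 0 min, with no overlap. It fell by 0.28 on the log2 scale (SE 0.06, adjusted p = 0.017), and without the preparation block the adjusted p was 0.083. All 6 tested core subunits lay below 0 there, with a median of -0.09, and the other 5 did not pass. Of the 28 accessory subunits none passed in either arm at 120 min on the probe set used. A second, dim Ndufa9 probe set passed in ischemia+reperfusion, at -0.56 (adjusted p = 0.020), where the one used gave -0.10 (adjusted p = 0.43). Ndufb8 had the lowest estimate among them in ischemia+reperfusion, -0.61 ± 0.24 (adjusted p = 0.15), with single arrays as far apart as 9.94 and 10.96.

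Ndufa6 and Ndufv3, accessory subunits of complex I, had large estimates in ischemia that rested on the outlying array. Ndufa6 read 4.99 there and between 12.15 and 12.73 on the other 39 arrays. Ndufv3 read 7.03 there and between 11.79 and 12.16 elsewhere. A second Ndufv3 probe set, not used for the gene, read 11.93 on that array and between 6.66 and 7.17 on the rest, the reverse of the first. The change of Ndufa6 at 120 min of ischemia was 1.79 with that array and -0.02 without it, and that of Ndufv3 was 1.22 with it and -0.00 without it. Neither passed the test in any comparison.

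In complex II, none of the 4 succinate dehydrogenase subunits passed under the main settings. Sdhc, a membrane anchor, came nearest, at -0.18 ± 0.06 for 120 min of ischemia (adjusted p = 0.069), with 12.51 to 12.61 at 120 min and 12.70 to 12.77 at 0 min. Sdhc did pass there on the deposited scale, with no filter and with a filter at the 60th percentile (limma, adjusted p = 0.027, 0.037 and 0.049). With arrays as samples it passed too, by duplicate correlation (adjusted p = 0.0023) and with duplicate number as a term (adjusted p = 0.0015). Sdha, the flavoprotein, changed by -0.12 ± 0.06 at 120 min of ischemia+reperfusion and -0.11 ± 0.06 at 120 min of ischemia. Sdhb, the iron-sulfur subunit, changed by -0.07 and -0.08, and Sdhd, the other anchor, by -0.10 and -0.03, in the same order. A second Sdhd probe set changed by -0.11 in ischemia+reperfusion and -0.24 in ischemia (adjusted p = 0.44 and 0.070). On the probe sets used, all these intervals included 0 apart from that of Sdhc in ischemia.

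In complex III, Uqcrc2, a large core protein that faces the matrix, fell at 120 min of ischemia. Its arrays read 12.90, 12.87, 12.83 and 12.87, against 13.03, 13.16, 13.11 and 13.13 at 0 min, with no overlap. The change was -0.24 ± 0.06 (adjusted p = 0.022), and a second Uqcrc2 probe set changed by -0.36 (adjusted p = 0.018). With median-centred arrays the change was -0.31 and missed the threshold (adjusted p = 0.051). In ischemia+reperfusion it was -0.16 ± 0.06 at 120 min (adjusted p = 0.12). The other 6 members of complex III changed by between -0.09 and 0.01 at 120 min of ischemia.

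In complex IV, Cox7c, a small general subunit, read 12.95, 12.98, 12.85 and 12.97 at 120 min of ischemia and 13.15, 13.09, 13.17 and 13.18 at 0 min. It changed by -0.21 ± 0.06 (adjusted p = 0.036), and without the outlying array the adjusted p was 0.050, just past the threshold, and without duplicate 1 of preparation 2 at 120 min it was 0.070. In ischemia+reperfusion the change at 120 min was -0.01. The heart and muscle-type isoform Cox6a2 changed by between -0.06 and 0.03 over the 8 comparisons, and its general counterpart Cox6a1 by between -0.09 and 0.05. Cox8b, a heart and muscle-type isoform in rodents, ran from -0.02 to 0.22, and Cox8a from -0.08 to -0.00. Cox6b1 ran from -0.02 to 0.05, Cox6b2 from -0.14 to 0.23, and Cox7a2l, a factor that joins complexes into supercomplexes, from -0.01 to 0.10. None of these 7 passed in any of the 8 comparisons under the main settings. On the deposited scale Cox8a changed by -0.31 at 120 min of ischemia (limma, adjusted p = 0.046), where all probe sets had a median of -0.22.

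**Figure D4:**
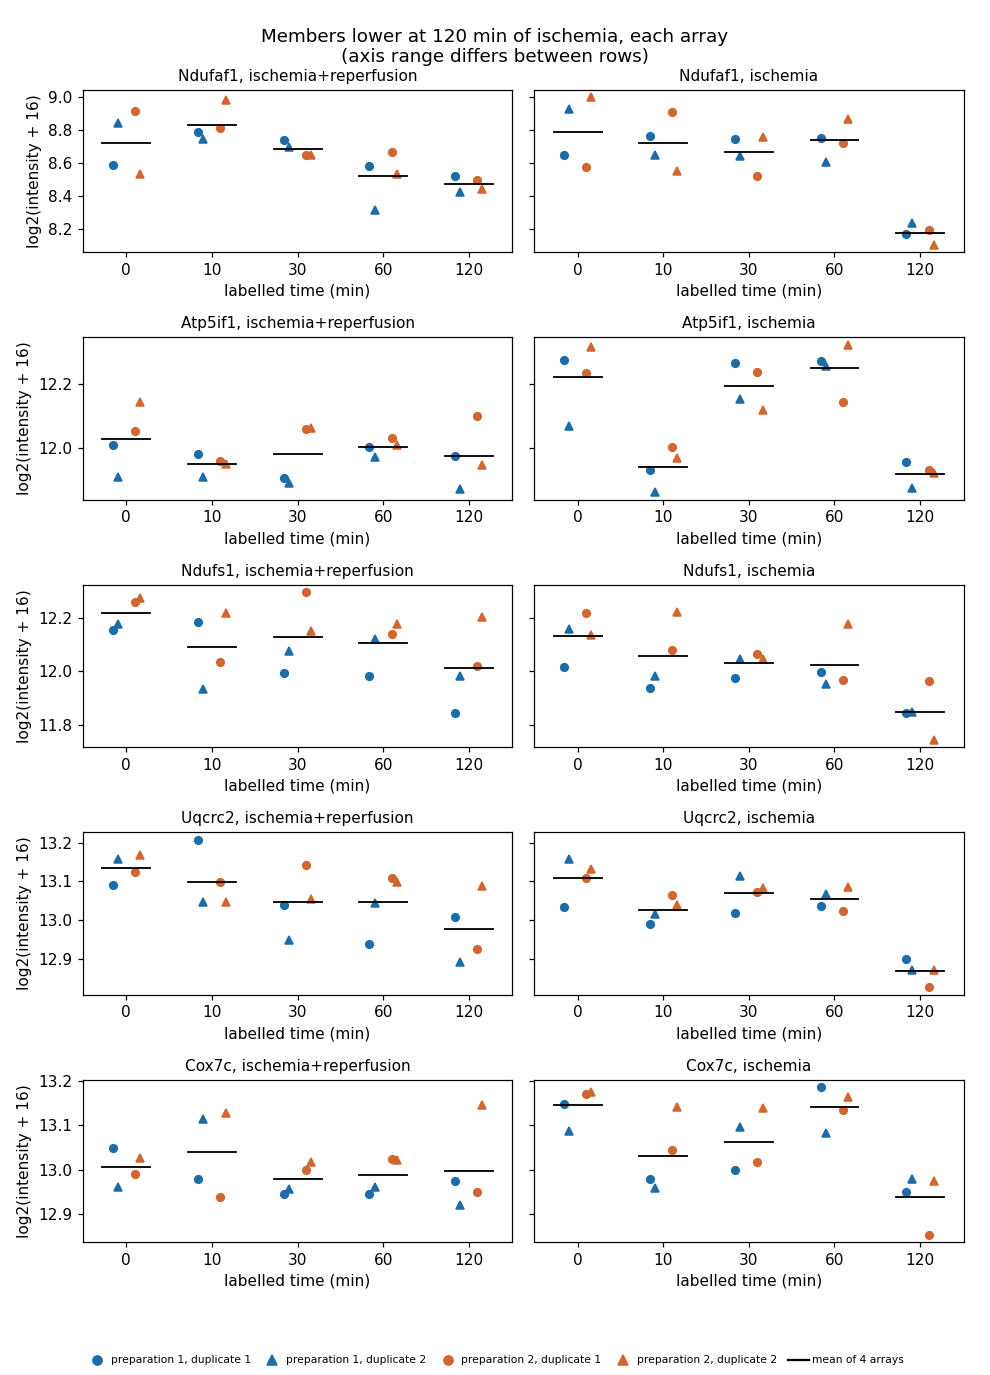
Levels of the 5 members that were lower at 120 min of ischemia in each array of ischemia+reperfusion (left) and ischemia (right), as log2(intensity + 16) against labelled time in min. Colours mark preparations, symbols duplicates and black lines the mean of 4 arrays. The 4 Ndufaf1 arrays at 120 min of ischemia, 8.10 to 8.23, lie below all others.

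Cox5a, a general oxidase subunit, split by duplicate number within groups. At 120 min of ischemia+reperfusion duplicates 1 and 2 read 10.34 and 9.56 in preparation 1, and 10.46 and 9.50 in preparation 2. At 120 min of ischemia they read 10.46 and 9.72 in preparation 1, and 10.56 and 9.72 in preparation 2. Over the 20 pairs of duplicates, duplicate 1 was the higher in 18, and by more than 0.5 log2 units in 8. Of the 18625 probe sets tested, 10 (0.0537%) had as many pairs one way with as many beyond 0.5. Cox4i2 leaned the same way, with duplicate 1 the higher in 16 of 20 pairs. The change of Cox5a at 120 min was 0.23 ± 0.13 in ischemia+reperfusion and 0.27 ± 0.13 in ischemia, and neither passed (adjusted p = 0.31 and 0.18).

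**Figure D5:**
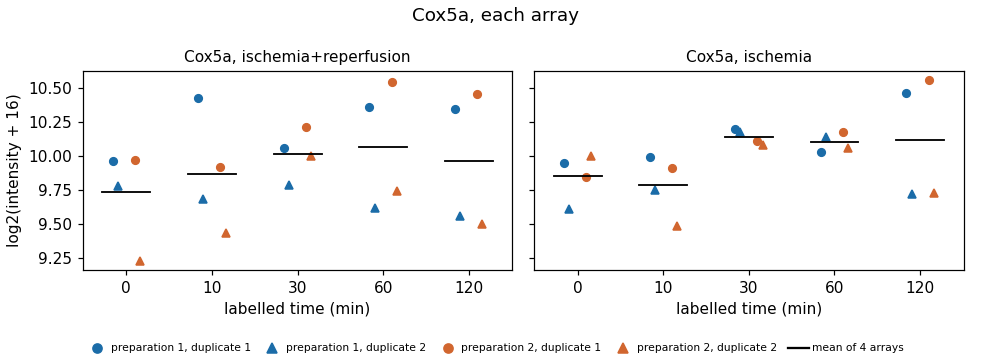
Cox5a level in each array of ischemia+reperfusion (left) and ischemia (right), as log2(intensity + 16) against labelled time in min. Circles are duplicate 1, triangles duplicate 2, colours the preparations and black lines the mean of 4 arrays. At 120 min in both arms the circles lie above 10.3 and the triangles below 9.8.

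In complex V the inhibitor Atp5if1, which binds ATP synthase and blocks ATP hydrolysis when mitochondria lose their membrane potential, was the member that passed. In ischemia it read 12.28, 12.07, 12.23 and 12.32 at 0 min, 11.93, 11.86, 12.01 and 11.97 at 10 min, 12.27, 12.15, 12.24 and 12.12 at 30 min, 12.27, 12.26, 12.15 and 12.32 at 60 min, and 11.96, 11.88, 11.93 and 11.92 at 120 min. The arrays at 10 and 120 min lay below those at the other times. The change was -0.28 ± 0.06 at 10 min (adjusted p = 0.048) and -0.30 ± 0.06 at 120 min (adjusted p = 0.014). With the probe sets of the gene averaged the adjusted p at 120 min was 0.17. At 10 min the test failed when the outlying array was dropped (-0.23, adjusted p = 0.11), and likewise without duplicate 2 of preparation 2 at 0 min, and without duplicate 2 of either preparation at 10 min (adjusted p = 0.056 to 0.066).

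In ischemia+reperfusion Atp5if1 kept close to 12 at all times. Its arrays ran from 11.87 to 12.10 at 120 min and from 11.91 to 12.14 at 0 min, and its changes from 0 min lay between -0.08 and -0.02. The arms already differed at 0 min, by -0.19 for ischemia+reperfusion minus ischemia (adjusted p = 0.16), and the difference was -0.21 at 30 min (adjusted p = 0.13). At 60 min it was lower in ischemia+reperfusion than in ischemia by 0.24 (SE 0.06, adjusted p = 0.048), the sole call among 84 members in that comparison, beside 5.38% of all probe sets (2.24% lower). The change from 0 to 60 min differed between the arms by -0.05 ± 0.09 (adjusted p = 0.86). The 60 min call was lost when either of 2 arrays of each arm was left out, with adjusted p up to 0.11. With arrays centred on their medians instead, 35 of 84 members (41.7%) were called lower there, beside 7.34% of all probe sets called, and on the deposited scale 0 were, beside 11.7%. A second Atp5if1 probe set changed by -0.58 at 120 min of ischemia (adjusted p = 0.0094) and by -0.80 at 60 min between the arms (adjusted p = 0.0071). The 5 subunits of the catalytic F1 part, the ring subunit, the 4 stalk subunits and the 5 small membrane subunits gave no call at 120 min in either arm. Atp5me, a small membrane subunit, had the largest estimate in complex V at 120 min of ischemia+reperfusion, 0.27 ± 0.08 (adjusted p = 0.060).

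Between the arms, no member passed at 0 min (background 0.333%), 10 min (0%), 30 min (0.532%) or 120 min (0%), with limma's unadjusted p under 0.05 in 6, 1, 2 and 2 members. With the 40 arrays as samples and a duplicate correlation these counts of calls were 0, 0, 1 and 0. Of all probe sets 2.59%, 0.387%, 3.65% and 0.00537% were then called. At 120 min the largest differences by complex, ischemia+reperfusion minus ischemia, were Ndufa4l2 at 0.39, Sdhd at 0.06, Uqcrc2 at 0.11, Cox5a at -0.15 and Atp5f1d, the delta subunit of the F1 part, at 0.10, with adjusted p between 0.75 and 0.97. The interaction of duration and arm by the F test passed for 0 of 84 members, and for 1 of 18625 probe sets (0.00537%). The F test over the durations passed for 1 member in ischemia+reperfusion (background 3.61%), Ndufaf1, and for 2 in ischemia (background 4.57%), Ndufaf1 and Atp5if1.

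Other mitochondrial genes were read from lists of related function, to be set beside 7.17% of all probe sets called at 120 min of ischemia+reperfusion (3.5% higher) and 12.9% at 120 min of ischemia (6.45% higher). Of 13 electron carriers and exchangers, among them cytochrome c1 and the adenine nucleotide carriers, 0 passed at 120 min in either arm, with medians of -0.05 in ischemia+reperfusion and -0.06 in ischemia. Of 15 genes of the citric acid cycle and its entry enzyme 0 passed in ischemia+reperfusion and 1 fell in ischemia, Dld, the shared dehydrogenase subunit, by 0.25. The 2 mitochondrially encoded genes on the array gave no call at 120 min.

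Of 15 regulators of mitochondrial biogenesis, Pprc1, a coactivator, rose by 0.86 ± 0.18 at 120 min of ischemia+reperfusion (adjusted p = 0.024). In ischemia at 120 min Esrra, a nuclear receptor of oxidative genes, rose by 0.46 and Tfb2m, a mitochondrial transcription factor, fell by 0.46 (adjusted p = 0.023 and 0.024). Of 9 genes through which low oxygen acts on mitochondria, 5 rose at 120 min of ischemia+reperfusion: Mgarp by 4.22, the adenylate kinase Ak4 by 2.64, Pdk1, which shuts pyruvate out of the citric acid cycle, by 1.17, and the mitophagy receptors Bnip3 by 1.09 and Bnip3l by 0.79. In ischemia at 120 min 2 of the 9 rose, Ak4 by 4.0 and Lonp1 by 1.51. Mgarp read at the floor of the scale on 9 arrays and Ak4 on 3. The sizes of the Mgarp and Ak4 changes may therefore depend on the floor and the pseudocount. The medians of that list were 0.79 in ischemia+reperfusion and 0.78 in ischemia, beside -0.04 in both arms for the 84 members.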

How the data were processed

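Values used were intensities per probe set as deposited by the authors, linear and in 1 table of 40 arrays, with 15.8% below 0. Per the labels' protocols, spin-column RNA was turned into biotin cRNA by a modified Eberwine method. How probe sets were summarised is not stated. The number of arrays limits the precision. Intensities were quantile-normalized, set to at least 0 and taken as log2(value + 16), and the 18625 probe sets above the 40th percentile (6.48) were tested. Genes were named from the platform annotation. Duplicate arrays were averaged, giving 20 values, and fitted with limma 3.58.1 in R 4.3.3 (lmFit, eBayes), with 10 groups and the preparation as a block (9 residual degrees of freedom, prior 2.27). Benjamini-Hochberg adjustment ran within each comparison. The fit was tested on simulated data.

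The labels mark a preparation shared by all groups, and preparation differences correlated above 0.1 in 34 of 45 pairs of groups (median 0.18, -0.18 to 0.53). Named were called members, the largest change per complex at 120 min, isoform sets, Atp5if1, the Sdh genes, and the 3 brightest and 3 dimmest members. Ndufa6, Ndufv3, Cox5a, Ndufb8, Ndufa9, Ndufaf3, Ndufaf4 and Ndufaf7, and the other genes of the lists, were chosen after their values were seen. Members and lists were chosen with earlier results of these data known. Alternatives were other scalings, pseudocounts of 4 and 64, other filters, no block, arrays as samples, mean probe sets and left-out arrays. The fit with duplicate number as a term was added after seeing the data. Promoters came from RefSeq (GRCr8), and no genome was used.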

Additional observations from a re-analysis of the deposited data

Results flagged for a closer look

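Each group holds 4 arrays, and an array was singled out where its gap to the next passed Dixon's critical value at 95%. Of 320 sets of 4 values checked, 7 were singled out. A chance rate of 1 in 20 would hold for independent values. Arrays of a group are pairs of duplicates, and complex means are built from the members, so the chance rate here is not known. The 0 min ischemia array of preparation 1, duplicate 1, gave 2 of the 7, Ndufa6 at 4.99, against 12.23 to 12.31 on the other arrays of the group, and Ndufv3 at 7.03, against 11.91 to 12.09. The 30 min ischemia array of preparation 1, duplicate 1, read low for Cox6b1, at 13.05 against 13.11 to 13.12, and for the mean of complex I, at 11.95 against 12.03 to 12.04. At 60 min of ischemia Ndufb8 read 11.35 in duplicate 2 of preparation 1, against 10.55 to 10.64. At 0 min of ischemia+reperfusion the dim Cox7a1 read 4.91 in duplicate 1 of preparation 2, against 5.43 to 5.51. At 120 min of ischemia+reperfusion the mean of complex IV was 11.79 in duplicate 2 of preparation 1, against 11.91 to 11.93.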

How the results depend on the processing

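No called direction reversed under any setting tried. Most counts of members called moved with the error model. Leaving out the preparation (no replicate block) gave 0 at 10 min, 3 at 120 min of ischemia, 0 at 120 min of ischemia+reperfusion, 0 between the arms at 60 min and 0 by the F test in ischemia+reperfusion, against 1, 6, 1, 1 and 1 as reported, and changed no other count by over 1.5 times. With arrays as samples and a duplicate correlation, the counts were 2, 1, 1 and 10 at 10, 30, 60 and 120 min of ischemia, 1, 4 and 5 at 30, 60 and 120 min of ischemia+reperfusion, 1 and 3 between the arms at 30 and 60 min, and 12 and 4 by the F test in ischemia and ischemia+reperfusion. With preparation and duplicate number as terms, chosen after seeing the data, they were 2, 2, 2 and 13 in ischemia, 2, 4 and 7 in ischemia+reperfusion, 1, 1 and 3 between the arms at 0, 30 and 60 min, and 14, 4 and 1 by the F tests of both arms and of their interaction. These models count duplicates as samples. The shares of all probe sets called, in the same order, were 0.945%, 7.97%, 3.46%, 3.14% and 1.31% without the block. With the duplicate correlation they were 6.35%, 1.53%, 1.58% and 19%, then 3.81%, 11.7% and 13.2%. They were 3.65% and 12% between the arms, and 17.1% and 16.1% by the F tests. With both terms they were 9.52%, 2.82%, 2.63% and 23.2%, then 5.27%, 14.7% and 16%. They were 4.46%, 5.63% and 15.5% between the arms, and 24%, 21.4% and 2.83% by the F tests.

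On the deposited scale 0.354%, 18.3%, 1.64% and 11.7% of all probe sets were called at 10 min and 120 min of ischemia, 120 min of ischemia+reperfusion and between the arms at 60 min. The members' counts were 0 at 10 min and 20 at 120 min of ischemia, 0 at 120 min of ischemia+reperfusion, 0 between the arms at 60 min, and 1 and 0 by the F tests of ischemia and ischemia+reperfusion. The complex I to V medians were then -0.28, -0.34, -0.27, -0.25 and -0.30 at 120 min of ischemia, and -0.16, -0.21, -0.14, -0.13 and -0.16 at 120 min of ischemia+reperfusion. With median-centred arrays the counts were 0 at 10 min of ischemia, 2 at 120 min of ischemia+reperfusion and 35 between the arms at 60 min, beside 1.47%, 8.98% and 7.34% of all probe sets. The medians were then -0.077 in complex III and -0.10 in complex V for ischemia, and -0.12, -0.18, -0.11, -0.10 and -0.13 in complexes I to V for ischemia+reperfusion. Without the filter, 2 members passed at 120 min of ischemia+reperfusion and 4 by the F test in ischemia, and with a filter at the 60th percentile 4 passed at 120 min of ischemia+reperfusion. With probe sets of a gene averaged, 0 passed at 10 min of ischemia, 2 at 120 min of ischemia+reperfusion and 1 by the F test in ischemia. Without the pair of 120 min arrays 2 passed at 120 min of ischemia+reperfusion. The cause of these moves was not tested. Of all probe sets 4.85% and 1.04% were called by the F tests on the deposited scale. The shares were 3.81% and 2.83% without the filter and 9.93% with the filter at the 60th percentile. With probe sets averaged they were 1.97%, 7.18% and 4.57%, and without the pair 7.4%.

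Leaving out 1 array at a time, the counts ran from 0 to 1 at 10 min of ischemia, 4 to 8 at 120 min of ischemia, 0 to 1 at 60 min and 0 to 3 at 120 min of ischemia+reperfusion, 0 to 2 between the arms at 60 min, 2 to 3 by the F test in ischemia and 0 to 1 in ischemia+reperfusion. All other counts stayed at 0. Ndufaf1, Uqcrc2, Ndufs1 and Atp5if1 at 120 min of ischemia kept their calls without any 1 array, with highest adjusted p of 0.0076, 0.038, 0.028 and 0.035.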
